A study of Mus musculus with 12 samples.

Results

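The genes described here are 33 genes of cell division, chosen by name for their known roles in the cell cycle, of 41388 genes counted. No measured value entered the rule, but earlier results of these data were known when it was made. They fall into 12 genes of S phase, in which DNA is copied, and 21 genes of mitosis, in which the copies are shared out between daughter cells. The S phase genes encode the licensing helicase subunits (Mcm2 to Mcm7), the sliding clamp of the replication fork (Pcna), the enzymes that supply deoxynucleotides (Rrm1, Rrm2 and Tyms) and the cyclins that start replication (Ccne1 and Ccne2). The mitosis genes encode the cyclins and the kinase that drive entry (Ccna2, Ccnb1, Ccnb2 and Cdk1) with the transcription factor Foxm1, the mitotic kinases and checkpoint (Aurka, Aurkb, Birc5, Plk1, Bub1 and Bub1b), the spindle and chromosome proteins (Tpx2, Kif11, Kif20a, Cenpa, Cenpe, Nusap1, Top2a and Mki67), and the ubiquitin ligase that ends mitosis (Cdc20 and Ube2c).

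The data are 12 RNA-seq libraries of brain cells from 8 mice. All animals were on a C57BL/6 background with the strain Bmal fl/fl; ALDH1L1-CreERT2, that is, with floxed alleles of the clock gene Bmal1 (Arntl), and all of them, with and without Cre, received 5 daily doses of 2 mg tamoxifen when 2 months old and were used at 7 months. In Cre+ animals, called aKO here, Cre is driven by the astrocyte promoter of Aldh1l1 and Bmal1 is to be lost from astrocytes, while Cre- animals, called WT here, carry the floxed alleles and had the same drug. Brains were digested and cells bound by ACSA-2 beads (astrocytes) were parted from the rest (flowthrough). There were astrocyte libraries from 5 aKO animals (203, 205, 208, 221 and 222) and 3 WT animals (201, 202 and 265), and flowthrough libraries from 2 aKO animals (203 and 205) and 2 WT animals (201 and 202), so that 4 animals gave both fractions.

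Astrocyte library 202 is WT by its title, and by the labels of the flowthrough from the same animal, but its own genotype field says knockout. It was kept as WT here. Arntl was at 5.91 to 17.5 CPM in aKO astrocytes and 2.23 to 7.52 CPM in WT astrocytes, and at 2.09 to 4.08 CPM in aKO flowthrough and 3.51 to 4.19 CPM in WT flowthrough. A count over the whole gene includes exons outside the floxed part and so does not check the deletion, and the names aKO and WT rest on the labels alone. Library totals ran from 21816637 to 62655238 counts. The 33 genes had their smallest shares of the counts in astrocyte libraries aKO 222 (0.0124%) and WT 265 (0.0121%). Xist had 2044 and 972 counts in aKO 221 and 222 and at most 46 in any other library. No WT library had such Xist counts, so what goes with Xist is not balanced between aKO and WT astrocytes. Summed astrocyte markers were at 2742 to 7736 CPM in astrocyte libraries and 378 to 2460 CPM in flowthrough, so every astrocyte library was above every flowthrough library. Oligodendrocyte markers were at 2957 to 17067 CPM in the same astrocyte libraries and 834 to 5353 CPM in flowthrough.

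Most cells of an adult brain, astrocytes among them, are out of the cell cycle. Many mitosis genes are then held down by a repressor complex on a short promoter element, the cell cycle genes homology region (CHR). When a cell commits to divide, E2F factors switch on the S phase genes first. A complex with B-MYB and FOXM1 switches on the mitosis genes later, with the factor NF-Y on CCAAT boxes. Dividing cells in and around the adult brain include oligodendrocyte precursors, neural progenitors, microglia and blood cell precursors. The 33 genes took up between 0.0121% and 0.0365% of the counts of a library, which was 2854 to 15856 counts, and a single gene was at 0 in a single library (Cdc20 in aKO astrocytes 221, where 3 counts, the limit that a count of 0 allows, are 0.0783 CPM; such limits cover counting error only).

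Promoters of genes called lower in astrocytes than in flowthrough are shown first, because the elements named above can be read in their letters. RefSeq (GRCm38.p6) gave a promoter for 26 of the 33 genes, and the 250 bases before the start site are printed 5′ to 3′ on the gene's strand for the 6 of them that passed the test between fractions. They lie at chr9:70421555-70421804 (Ccnb2, minus strand), chr10:69352913-69353162 (Cdk1, minus), chr4:118437344-118437593 (Cdc20, minus), chr11:117848987-117849236 (Birc5, plus), chr1:20820313-20820562 (Mcm3, minus) and chr5:30073626-30073875 (Tyms, minus). The last 26 bases of the Cdk1 window and the last 9 of the Cdc20 window lie inside the gene as GENCODE M21 draws it. Capitals mark the CHR (TTTGAA or TTCGAA), the CCAAT box (CCAAT) and the E2F site (TTTCCCGC, TTTGGCGC, TTTCGCGC or TTTGCCGC), searched on both strands, so that ATTGG is a CCAAT box read from the other strand.
Ccnb2: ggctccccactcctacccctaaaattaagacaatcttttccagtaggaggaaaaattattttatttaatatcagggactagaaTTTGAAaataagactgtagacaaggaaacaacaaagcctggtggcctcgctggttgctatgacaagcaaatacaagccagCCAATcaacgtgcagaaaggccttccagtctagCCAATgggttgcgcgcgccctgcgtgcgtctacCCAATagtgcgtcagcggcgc
Cdk1: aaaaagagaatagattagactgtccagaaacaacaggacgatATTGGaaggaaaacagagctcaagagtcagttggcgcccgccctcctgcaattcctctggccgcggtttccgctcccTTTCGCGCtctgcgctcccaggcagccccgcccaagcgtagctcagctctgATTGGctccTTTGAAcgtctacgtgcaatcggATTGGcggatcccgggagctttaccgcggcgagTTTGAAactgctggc
Cdc20: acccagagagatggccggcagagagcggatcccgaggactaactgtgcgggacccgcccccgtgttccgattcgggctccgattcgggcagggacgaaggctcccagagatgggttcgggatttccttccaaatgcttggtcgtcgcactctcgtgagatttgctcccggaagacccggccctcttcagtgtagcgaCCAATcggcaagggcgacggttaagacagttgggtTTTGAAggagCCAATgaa
Birc5: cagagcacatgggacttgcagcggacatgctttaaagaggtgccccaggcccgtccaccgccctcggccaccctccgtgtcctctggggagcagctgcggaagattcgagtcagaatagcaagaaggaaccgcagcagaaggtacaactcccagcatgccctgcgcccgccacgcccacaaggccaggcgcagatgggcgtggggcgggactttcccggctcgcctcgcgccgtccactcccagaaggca
Mcm3: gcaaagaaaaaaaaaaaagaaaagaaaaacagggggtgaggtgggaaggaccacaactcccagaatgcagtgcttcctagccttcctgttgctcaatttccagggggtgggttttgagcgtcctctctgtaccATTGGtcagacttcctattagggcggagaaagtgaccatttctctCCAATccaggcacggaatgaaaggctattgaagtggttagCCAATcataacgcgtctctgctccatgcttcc
Tyms: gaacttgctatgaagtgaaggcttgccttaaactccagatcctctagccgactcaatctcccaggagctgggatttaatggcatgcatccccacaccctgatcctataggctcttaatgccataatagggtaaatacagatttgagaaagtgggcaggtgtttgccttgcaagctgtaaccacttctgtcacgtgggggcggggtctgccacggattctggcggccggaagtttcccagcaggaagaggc
Ccnb2 held 1 CHR and 3 CCAAT boxes, Cdk1 held 2 CHR, 3 CCAAT boxes and 1 E2F site, and Cdc20 held 1 CHR and 2 CCAAT boxes. Mcm3 held 3 CCAAT boxes and neither of the other motifs in these 250 bases. Birc5 and Tyms held none of these letters in this window. The first 50 bases after the start were also searched but are not printed. There Mcm3 held E2F sites at positions 20 to 27 and 39 to 46. Ccnb2 held a further CHR there, at positions 5 to 10. No base was shared between matches of different motifs in the 6 windows.

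Over all members with a promoter, a CHR stood in 50% of the 16 mitosis promoters and 20% of the 10 S phase promoters, and in 17.4% of all 27025 promoters of the same length. CCAAT was in 87.5% of the mitosis and 80% of the S phase promoters, and in 34.5% of all. An E2F site was in 6.25% of the mitosis and 30% of the S phase promoters, and in 1.91% of all. With the first 50 bases after the start included, a CHR stood in 75% of the mitosis, 20% of the S phase and 19.4% of all promoters, and an E2F site in 6.25%, 40% and 2.32%. These are matches of letters, given as a description with no test.

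Between the fractions, 6 of the 21 mitosis genes and 2 of the 12 S phase genes were called lower in astrocytes than in flowthrough. In all, 8 members fell at an adjusted p under 0.05 (quasi-likelihood test of edgeR, Benjamini-Hochberg adjustment over all genes): Birc5, Ccnb2, Cdk1, Tpx2, Aurkb and Cdc20 of the mitosis genes, and Tyms and Mcm3 of the S phase genes. None was called higher. These 8 are 24.2% of the 33 members, all of which passed the filter on low counts, in the 8 astrocyte libraries alone as well as in all 12. Of the 20637 genes tested, 8.52% were called lower in astrocytes and 8.52% were called higher. Of the 21 mitosis genes 21 lay below 0, with a median log2 fold change of -1.02, and of the 12 S phase genes 9 did, with a median of -0.49. For all genes tested 46.9% lay below 0, and the median was 0.07. At an unadjusted p under 0.05 there were 14 of the 33 members, beside 32.0% of all genes.

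**Figure D1:**
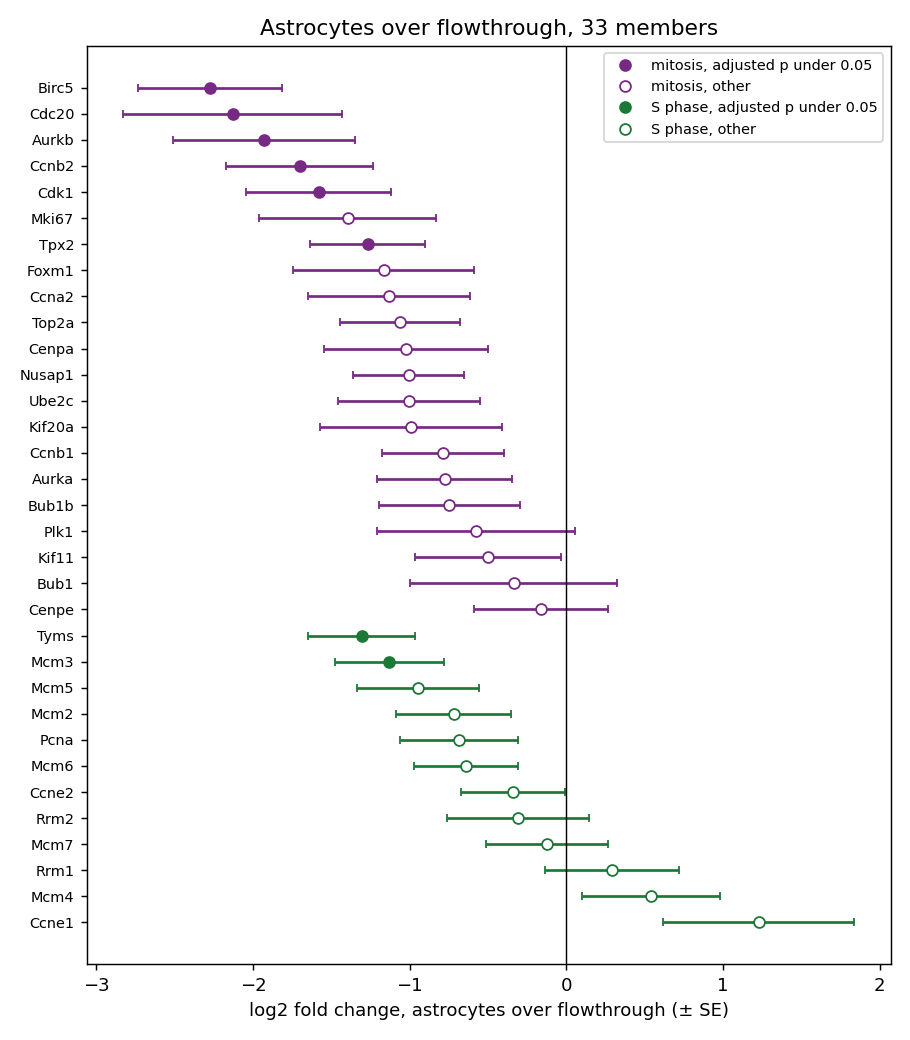
Log2 fold change of each of the 33 genes in astrocytes against flowthrough (points; bars are 1 standard error of the edgeR fit over 12 libraries), with the 12 S phase and 21 mitosis genes apart. All 21 mitosis genes lie below 0 and the 8 genes past the adjusted threshold run from -2.28 (Birc5) to -1.13 (Mcm3).

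Among the mitotic kinases and their partners, Birc5 (survivin, the subunit that directs Aurora B to centromeres; chr11:117849251-117855743 on GRCm38) differed most. Its lowest, median and highest levels in the 8 astrocyte libraries were 1.54, 1.73 and 7.10 CPM, against 22.5 and 11.6 CPM in aKO flowthrough and 11.6 and 12.3 CPM in WT flowthrough. The fractions did not overlap, and the log2 fold change was -2.28 (SE 0.46, adjusted p = 0.0026), or 4.84-fold lower. The astrocyte libraries with most Birc5, aKO 208 (5.64 CPM) and WT 265 (7.10 CPM), were also those with most erythroid markers (1235 and 1352 CPM summed, beside 99.0 to 445 CPM in the other 6) and most mature neutrophil markers (321 and 375 CPM, beside 53.0 to 134 CPM). These 2 libraries also had most B cell markers (14.6 and 18.4 CPM) and most choroid plexus markers (103495 and 178723 CPM) among astrocytes. Immature granulocyte markers were at 0.673 and 1.18 CPM in them. T and NK cell (6.20 and 10.6 CPM), basophil and mast cell (1.63 and 2.31 CPM) and microglia markers (259 and 182 CPM) were not highest in them. Other astrocyte libraries had up to 13.4, 7.26 and 383 CPM of these. The part of any of those cells in Birc5 was not tested.

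Aurkb (Aurora B itself; chr11:69045647-69051664) had a lowest, median and highest level of 0.102, 0.404 and 2.61 CPM in astrocytes, against 1.65 and 2.41 CPM in aKO flowthrough and 1.84 and 3.32 CPM in WT flowthrough. Only aKO astrocytes 208 reached into the flowthrough range, and the log2 fold change was -1.93 (SE 0.58, adjusted p = 0.0308). The other kinases and checkpoint genes lay below 0 but were not called. Aurka, which matures centrosomes, had -0.78 (SE 0.43, adjusted p = 0.2280), and Bub1b, the checkpoint kinase-like protein BUBR1, had -0.75 (SE 0.45, adjusted p = 0.2657). Plk1, the polo kinase of mitotic entry, had -0.58 (SE 0.63, adjusted p = 0.5621), and Bub1, the checkpoint kinase, had -0.34 (SE 0.66, adjusted p = 0.7603). Bub1 was the lowest member per length in flowthrough, at a median of 0.0928 RPKM.

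Of the genes of mitotic entry, Cdk1 (the kinase; chr10:69336635-69352938) was at 2.39, 6.30 and 10.9 CPM (lowest, median and highest) in astrocytes, against 27.1 and 4.22 CPM in aKO flowthrough and 21 and 16.7 CPM in WT flowthrough. Flowthrough of aKO 205 stood inside the astrocyte range and the other 3 flowthrough libraries above it. Its log2 fold change was -1.58 (SE 0.46, adjusted p = 0.0266). Ccnb2 (cyclin B2; chr9:70407689-70421554) had the same pattern, with 0.413, 0.897 and 1.66 CPM in astrocytes, against 3.47 and 1.12 CPM in aKO flowthrough and 3.19 and 3.72 CPM in WT flowthrough. Its log2 fold change was -1.70 (SE 0.47, adjusted p = 0.0200). Ccna2 (cyclin A2) had -1.13 (SE 0.51, adjusted p = 0.1405), Foxm1 had -1.17 (SE 0.58, adjusted p = 0.1764) and Ccnb1 (cyclin B1) had -0.79 (SE 0.39, adjusted p = 0.1747), none of them called. Foxm1 was the lowest member per length in astrocytes, at a median of 0.0759 RPKM.

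Cdc20 (the activator of the anaphase-promoting complex; chr4:118432901-118437352) was low in both fractions, with 0, 0.288 and 1.09 CPM in astrocytes, against 1.73 and 3.58 CPM in aKO flowthrough and 1.08 and 0.949 CPM in WT flowthrough. The astrocytes of aKO 205 and 222 reached the WT flowthrough level. The log2 fold change was -2.13 (SE 0.70, adjusted p = 0.0459), just inside the threshold. Ube2c, the E2 enzyme of the same complex, had -1.0 (SE 0.45, adjusted p = 0.1382). Cdc20 overlaps Elovl1 on the opposite strand, and 10 of the 33 members overlap another annotated gene; no source used here says whether counting used strand, and these counts are less certain.

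In the spindle and chromosome group, Tpx2 (which nucleates spindle microtubules and activates Aurora A; chr2:152847964-152895321) was at 1.51, 3.23 and 4.35 CPM in astrocytes, against 5.66 and 8.60 CPM in aKO flowthrough and 4.19 and 11.2 CPM in WT flowthrough. Only WT astrocytes 201 overlapped the flowthrough, and the log2 fold change was -1.27 (SE 0.37, adjusted p = 0.0248). Mki67, which coats mitotic chromosomes and is the usual proliferation marker, was at 0.531, 1.56 and 6.71 CPM in astrocytes, against 4.62 and 11.3 CPM in aKO flowthrough and 4.68 and 2.65 CPM in WT flowthrough. It was not called, at -1.40 (SE 0.56, adjusted p = 0.0981), and aKO astrocytes 205 stood above 3 of the 4 flowthrough libraries. Top2a, the topoisomerase that untangles sister chromatids, had 2.65, 6.35 and 11.2 CPM in astrocytes, against 13.2 and 18 CPM in aKO flowthrough and 10.2 and 10.1 CPM in WT flowthrough. Only aKO astrocytes 205 overlapped, and Top2a had -1.06 (SE 0.38, adjusted p = 0.0671).

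With the animal as a block, in the 8 libraries of the 4 animals that gave both fractions, 8 members were called lower. Of these, 6 were also called in all 12 libraries without the block. More genes were called in that fit, and 13.6% of all 20189 tested were lower, beside 8.52% in all 12 libraries without the block. The same 8 libraries without the block gave 5 members and 9.97% of all genes lower. Block and set of libraries thus changed together. Beside the fit of all 12 libraries, the blocked edgeR fit added Mki67 (-1.51, adjusted p = 0.0126) and Top2a (-1.34, adjusted p = 0.0089). It did not call Tpx2 (-0.89, adjusted p = 0.1072) and Mcm3 (-0.85, adjusted p = 0.0507).

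The remaining spindle and chromosome genes were not called. Nusap1, which bundles spindle microtubules, had -1.01 (SE 0.35, adjusted p = 0.0601). Cenpa, the centromere histone, had -1.02 (SE 0.53, adjusted p = 0.1917), and Kif20a, the motor of the spindle midzone, had -0.99 (SE 0.58, adjusted p = 0.2515). Kif11, the motor that separates spindle poles, had -0.50 (SE 0.47, adjusted p = 0.4840). Cenpe, the kinetochore motor, had -0.16 (SE 0.43, adjusted p = 0.8260), a direction that turned in some other settings (0.0409 with the animal as a block, 0.36 without WT flowthrough 201).

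Of the S phase genes, Tyms (thymidylate synthase; chr5:30058202-30073617) was at 7.45, 11 and 15.5 CPM in astrocytes, against 43.4 and 10.3 CPM in aKO flowthrough and 35.8 and 21.7 CPM in WT flowthrough. As with Cdk1, flowthrough of aKO 205 stood inside the astrocyte range. The log2 fold change was -1.31 (SE 0.34, adjusted p = 0.0150). Mcm3 (chr1:20802968-20820312) was at 2.39, 5.49 and 7.58 CPM in astrocytes, against 10.4 and 7.99 CPM in aKO flowthrough and 9.66 and 19.7 CPM in WT flowthrough. It did not overlap between the fractions, as for Birc5 and no other member, and had -1.13 (SE 0.35, adjusted p = 0.0352). Of all genes tested, 5.93% lay lower in astrocytes without overlap and 5.01% higher, so 2 of 33 is near the background.

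The other helicase subunits were not called. Mcm5 had -0.95 (SE 0.39, adjusted p = 0.1047), Mcm2 had -0.72 (SE 0.37, adjusted p = 0.1879) and Mcm6 had -0.64 (SE 0.33, adjusted p = 0.1984). Mcm7 had -0.12 (SE 0.39, adjusted p = 0.8560) and Mcm4 had 0.54 (SE 0.44, adjusted p = 0.4204), although all 6 products enter a single ring in equal number. Mcm4 was at 4.83, 11.5 and 19.5 CPM in astrocytes, against 8.97 and 5.83 CPM in aKO flowthrough and 4.71 and 14.7 CPM in WT flowthrough. Differences between subunits were not tested. The sign of Mcm7 turned without aKO astrocytes 222 (0.00404), without WT astrocytes 265 (0.0769), without WT flowthrough 202 (0.13) and with the block (0.23), and Mcm7 overlaps 5 other genes.

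Pcna was the highest member per length in both fractions, with medians of 21.7 RPKM in astrocytes and 34.6 RPKM in flowthrough. Its levels were 23.9, 48.2 and 71.5 CPM in astrocytes, against 109 and 23.2 CPM in aKO flowthrough and 84.3 and 84.6 CPM in WT flowthrough, again with aKO 205 apart from the other flowthrough libraries. It was not called (-0.69, SE 0.38, adjusted p = 0.2251), and without aKO flowthrough 203 it had 0.0690. Rrm1, the large subunit of ribonucleotide reductase, had 0.29 (SE 0.43, adjusted p = 0.6724), and Rrm2, the small subunit, had -0.31 (SE 0.45, adjusted p = 0.6752) and 0.41 without WT flowthrough 202. Ccne1 (cyclin E1) was the member with the largest value above 0, at 1.23 (SE 0.61, adjusted p = 0.1763), and Ccne2 (cyclin E2) had -0.34 (SE 0.33, adjusted p = 0.5025). The ranking per length by median differed between fractions. Rrm1, Mcm7 and Rrm2 followed Pcna in astrocytes (medians 6.24, 4.02 and 4.00 RPKM). In flowthrough Cdk1, Tyms and Birc5 followed it (medians 5.33, 4.57 and 3.46 RPKM). By mean the order was another. In astrocytes Rrm1 was at 5.08 ± 2.61, Rrm2 at 3.91 ± 2.01, Mcm4 at 3.74 ± 2.02 and Mcm7 at 3.49 ± 1.62 RPKM (SD, n = 8). In flowthrough, mean levels were 4.59 ± 4.82 for Rrm2, 4.58 ± 2.54 for Cdk1 and 4.13 ± 2.14 RPKM for Tyms (SD, n = 4). These spreads over libraries overlap, but the genes of a fraction were read in the same libraries. The order of such genes within libraries was not tested.

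**Figure D2:**
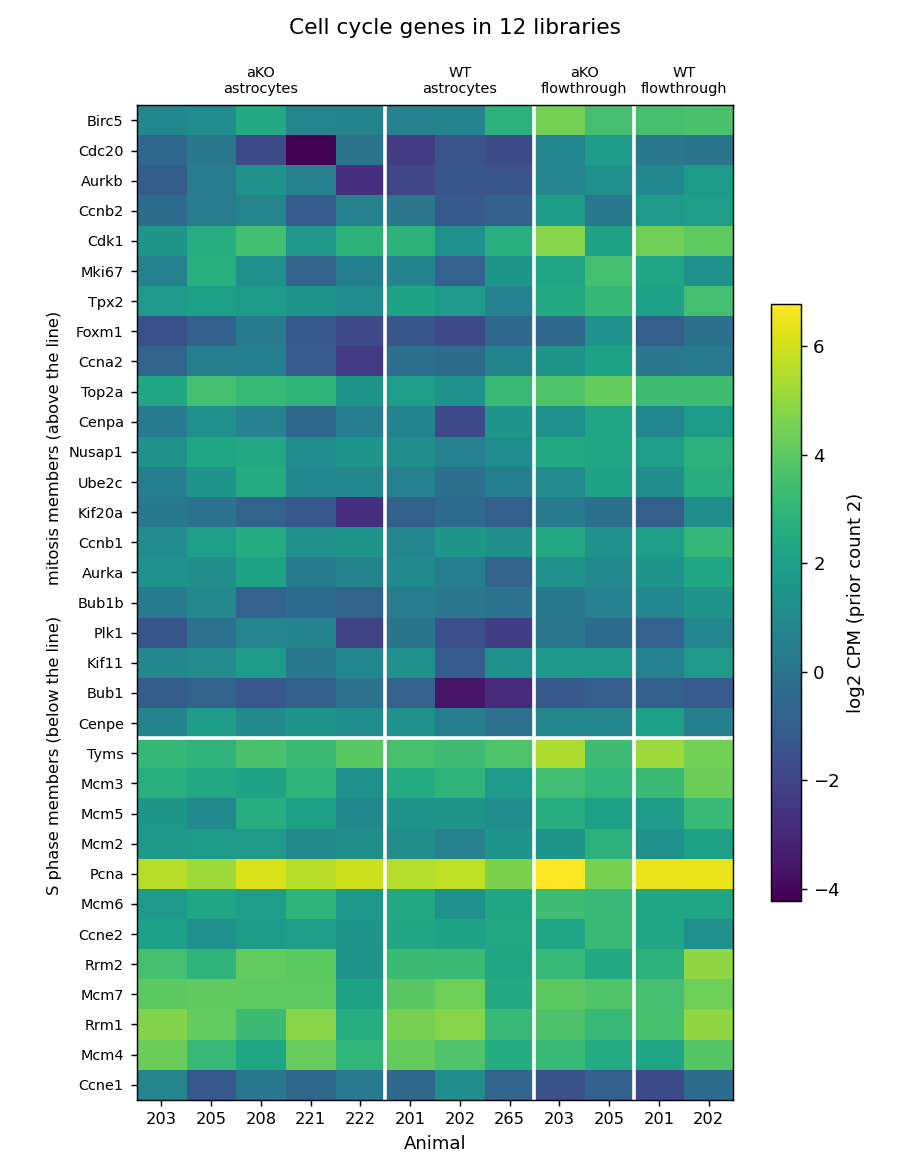
Log2 CPM of each of the 33 genes (rows) in each of the 12 libraries (columns) (colour, with a prior count of 2), with aKO left of WT and astrocytes left of flowthrough. Most mitosis genes are higher in the 4 flowthrough columns, and aKO flowthrough 205 differs from the others in Cdk1, Tyms and Pcna.

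Summed over the 21 mitosis genes, levels were 33.4, 61.5, 69.4, 33.7 and 34.4 CPM in aKO astrocytes (203, 205, 208, 221 and 222) and 38.5, 23.1 and 44.3 CPM in WT astrocytes (201, 202 and 265), against 109.9 and 94.4 CPM in aKO flowthrough (203 and 205) and 82.6 and 105 CPM in WT flowthrough (201 and 202). No astrocyte library reached a flowthrough library, and the means were 42.3 ± 15.6 CPM in astrocytes (SD, n = 8) and 97.9 ± 12.1 CPM in flowthrough (SD, n = 4). Summed over the 12 S phase genes, levels were 151, 112, 154, 162 and 111 CPM in aKO astrocytes and 146, 155 and 82.5 CPM in WT astrocytes, against 234 and 106 CPM in aKO flowthrough and 181 and 244 CPM in WT flowthrough. These overlapped, since flowthrough of aKO 205 was as low as astrocytes, and the means were 134 ± 28.6 CPM in astrocytes (n = 8) and 191 ± 63.2 CPM in flowthrough (n = 4). In bulk RNA, fewer cells in cycle and less RNA in each cannot be told apart.

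**Figure D3:**
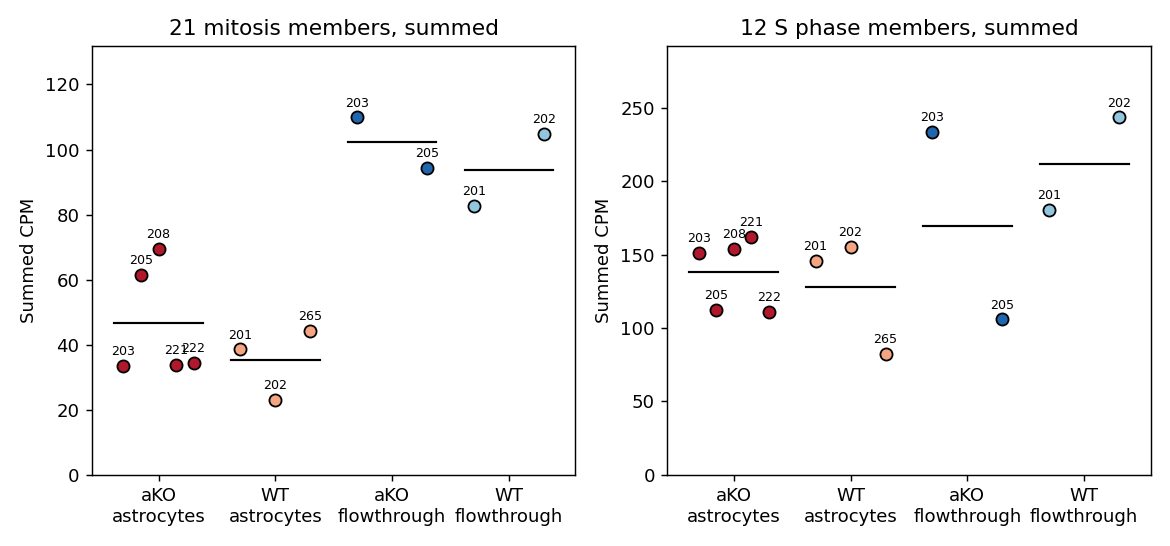
Summed CPM of the 21 mitosis genes and of the 12 S phase genes in each library (points, named by animal) and group, with a line at each group's mean. Mitosis sums are 23.1 to 69.4 CPM in astrocytes and 82.6 to 109.9 CPM in flowthrough, while S phase sums overlap.

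Within animals, most mitosis genes were lower in astrocytes in at least 3 of the 4 animals, and 10 of 21 in all 4. Of the 33 members, 22 were lower in astrocytes than in flowthrough of animal 201, 30 in 202, 25 in 203 and 19 in 205. For the mitosis genes alone these counts were 16, 21, 19 and 12 of 21. Shares over all genes were not computed within animals. Of the 21 mitosis genes, 10 were lower in astrocytes in 4 of 4 animals, 7 in 3, 3 in 2 and 1 in 1. The 10 were Mki67, Top2a, Ccna2, Birc5, Cdc20, Aurkb, Cenpa, Nusap1, Ube2c and Foxm1. Of the 12 S phase genes, Mcm3, Mcm5 and Tyms were lower in 4 animals, 4 genes in 3, 4 genes in 1, and Mcm7 in 0. Animal 202 had the largest difference, with a median over members of -1.64 on the log2 scale, and animal 201 the smallest, with -0.41. In animal 205 Cdk1, Ccnb2, Ccnb1, Pcna, Cenpe and Aurka were higher in astrocytes (0.52, 0.18, 0.55, 0.61, 0.96 and 0.26), against the direction of the other 3 animals.

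**Figure D4:**
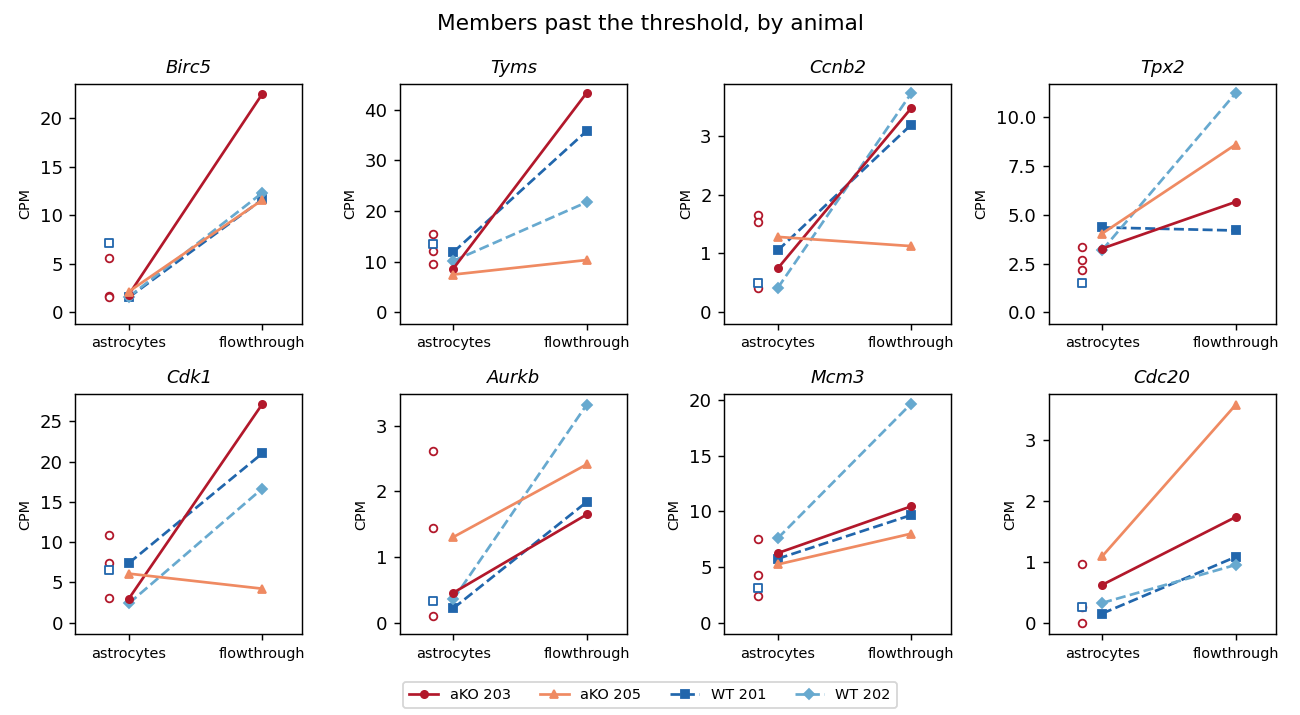
CPM of the 8 members called lower, in astrocytes (left) and flowthrough (right) of the 4 animals that gave both fractions, each animal a line, with open symbols (red circles aKO, blue squares WT) for animals that gave astrocytes only. Birc5 is lower in astrocytes in 4 of 4 animals, and Cdk1 in 3 of 4.

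The 4 flowthrough libraries did not rank the members alike. Flowthrough of aKO 205 was the lowest of the 4 for Cdk1, Ccnb2, Tyms and Pcna, and the highest for Mki67, Top2a, Ccna2, Cdc20 and Foxm1. Markers of immature granulocytes were at 156 and 15.2 CPM in aKO flowthrough (203 and 205) and 46.9 and 64.0 CPM in WT flowthrough (201 and 202), so they were lowest in aKO 205. Markers of basophils and mast cells were lowest there too (22.4 CPM, beside 27.1 to 105 CPM in the other 3), as were those of mural cells (118 CPM, beside 366 to 699 CPM). Choroid plexus markers were highest there (426030 CPM, beside 78876 to 217770 CPM), and Ttr alone took 32.1% of its counts, beside 8.17% to 19.8%. The part of any of these in those levels was not tested.

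Markers of many other cells moved with the fraction. Each of these lists was higher in every flowthrough library than in any astrocyte library: immature granulocytes (5 genes; 0.673 to 2.56 CPM summed in astrocytes and 15.2 to 156 CPM in flowthrough), mature neutrophils (5 genes; 53.0 to 375 and 1327 to 4679 CPM), T and NK cells (6 genes; 2.24 to 13.4 and 71.9 to 130 CPM), B cells (6 genes; 4.16 to 18.4 and 60.3 to 110.2 CPM), erythroid cells (6 genes; 99.0 to 1352 and 2575 to 11810 CPM), basophils and mast cells (4 genes; 1.0 to 7.26 and 22.4 to 105 CPM) and microglia (7 genes; 136 to 383 and 3995 to 5944 CPM). No marker was at 0 in all libraries of a fraction, and of the 5 genes for immature granulocytes 3 were at 0 in some astrocyte libraries. Oligodendrocyte precursor markers (5 genes) were at 23.7 to 63.4 CPM in astrocytes and 20.3 to 37.0 CPM in flowthrough, which overlap. Of the 5 neural progenitor markers, Fabp7, which is also made by astrocytes, was at 177 to 2891 CPM in astrocytes and 44.7 to 801 CPM in flowthrough, and the other 4 summed to 49.4 to 84.5 CPM in astrocytes and 28.1 to 42.4 CPM in flowthrough. Choroid plexus markers were at 13419 to 178723 CPM in astrocytes and 78876 to 426030 CPM in flowthrough, with Ttr alone at 1.2% to 17.0% and 8.17% to 32.1% of the counts. Mitochondrial genes took 11.1% to 36.5% of the counts in astrocytes and 4.81% to 12.9% in flowthrough. The part of any of these cells and shares in the difference of the division genes was not tested. The flowthrough titles also carry a letter that the astrocyte titles lack, and if it marks a batch, batch and fraction cannot be told apart.

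The calls between fractions leaned on single libraries. Birc5 passed in 22 of 22 other settings, with a log2 fold change between -2.81 and -2.0 when a library was left out. Tyms passed in 20 and was lost without WT flowthrough 201 or aKO flowthrough 203, with adjusted p up to 0.2012. Ccnb2 passed in 18 (adjusted p up to 0.1457) and Aurkb in 17 (up to 0.1027). Cdk1 passed in 15 (up to 0.3756), as did Tpx2 (up to 0.1751). Mcm3 passed in 12 (up to 0.1657) and Cdc20 in 11 (up to 0.1687). The log2 fold change of Cdk1 came to between -1.95 and -0.63 when a library was left out. The number of members called lower was 3 without WT flowthrough 201 or aKO flowthrough 203, 4 without WT flowthrough 202, aKO flowthrough 205 or WT astrocytes 202, and 5 without WT astrocytes 201. The share of all genes called lower was then 4.91% without WT flowthrough 201, 7.15% without aKO flowthrough 203, 8.08% without WT flowthrough 202, 6.14% without aKO flowthrough 205, 6.87% without WT astrocytes 202 and 7.63% without WT astrocytes 201. Without WT flowthrough 202 the median over members was -0.57, and with every library it was -0.95.

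The other genes of division came from lists of 38 replication genes, 45 mitosis genes and 15 regulators of G1. These lists too were made with earlier results of these data known. Of the 38 replication genes 0 were called higher and 5 lower (13.2%, beside 8.52% of all genes), and 28 lay below 0, with a median of -0.35. Of all genes 46.9% lay below 0. E2f2, an activating E2F, had -2.08 (SE 0.47, adjusted p = 0.0059), and Tk1, the thymidine salvage kinase, had -1.94 (SE 0.44, adjusted p = 0.0061). Cdt1 and Cdc6, which load the helicase, had -2.10 (SE 0.55, adjusted p = 0.0150) and -1.63 (SE 0.48, adjusted p = 0.0269). The number called lower was 2 without WT flowthrough 201 (4.91% of all genes) and 3 without aKO flowthrough 203 (7.15%).

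Of the 45 mitosis genes 1 was called higher and 7 lower (15.6%, beside 8.52% of all genes), and 36 lay below 0, with a median of -0.70. Ncaph, a condensin subunit, was at 2.02 ± 0.93 CPM in astrocytes (SD, n = 8) and 14.4 ± 6.51 CPM in flowthrough (SD, n = 4), with -2.84 (SE 0.44, adjusted p = 0.00032). Espl1 (separase) had -1.91 (SE 0.43, adjusted p = 0.0055) and Ndc80, of the outer kinetochore, -1.74 (SE 0.45, adjusted p = 0.0135). Anln (anillin), known for the contractile ring and also as an abundant transcript of oligodendrocytes, went the other way, with 24.0 ± 10.7 CPM in astrocytes and 6.56 ± 3.11 CPM in flowthrough (1.79, SE 0.33, adjusted p = 0.0013). The number called lower was 3 without WT flowthrough 202 (8.08% of all genes), and 4 without aKO flowthrough 203 (7.15%) or WT astrocytes 202 (6.87%).

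Of the 15 G1 regulators 0 were called higher and 3 lower (20%, beside 8.52% of all genes), and 9 lay below 0, with a median of -0.32. Cdk6, a cyclin D kinase, had -1.55 (SE 0.31, adjusted p = 0.0026), Myc had -1.76 (SE 0.39, adjusted p = 0.0057) and Rbl1, the pocket protein p107, had -1.60 (SE 0.41, adjusted p = 0.0136). Ccnd3 (cyclin D3) had -0.97 (SE 0.33, adjusted p = 0.0530) and was called with the animal as a block (-1.27, adjusted p = 0.0064), where Cdt1 was not (adjusted p = 0.0705). The block called 5 of the 15 lower, beside 13.6% of all genes. The fit without WT astrocytes 265 also called 5, beside 9.77% of all genes. Without aKO flowthrough 205, 1 was called, beside 6.14%.

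The study's own question is how astrocytes of aKO animals differ from WT astrocytes. No member was called there in either direction by edgeR, DESeq2 or limma voom, and 1 of 33, Aurkb, had an unadjusted p under 0.05. Of all 18950 genes tested, 0.0264% were called (0.0211% higher and 0.00528% lower) and 1.58% had an unadjusted p under 0.05. In simulated counts, this edgeR fit found 1.61% of 62 genes changed 2-fold, 32.2% of 59 changed 4-fold and 78.0% of 59 changed 8-fold. These genes were drawn from all levels, with means and spreads taken from all 12 libraries. The rates are thus not those of the 33 members in astrocytes. A lack of calls here does not show that levels were equal. More members lay above 0 (23) than below (10), with a median log2 fold change of 0.33, beside 0.02 and 53.0% above 0 for all genes. The mitosis genes had 17 of 21 above 0 and a median of 0.52, and the S phase genes 6 of 12 and 0.00474.

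Aurkb was at 0.455, 1.3, 2.61, 1.44 and 0.102 CPM in aKO astrocytes (203, 205, 208, 221 and 222), against 0.218, 0.354 and 0.336 CPM in WT astrocytes (201, 202 and 265). In all, 4 of the 5 aKO libraries stood above the WT range and aKO 222 below it, and the log2 fold change was 1.98 (SE 0.84, edgeR's adjusted p = 0.9997). Ube2c was at 1.37, 2.75, 5.89, 1.83 and 1.78 CPM in aKO astrocytes, against 1.42, 0.825 and 1.39 CPM in WT astrocytes, with 1.16 (SE 0.56). Nusap1 had 0.85 (SE 0.46) and Aurka 0.91 (SE 0.55). All these members had most RNA in aKO 208, which was also the aKO library with most erythroid markers (1235 CPM, beside 99.0 to 445 CPM in the other aKO astrocytes). Among aKO astrocytes it also had most mature neutrophil (321 CPM), B cell (14.6 CPM) and choroid plexus markers (103495 CPM). It had the fewest immature granulocyte markers of them (0.673 CPM). Its T and NK cell (6.20 CPM), basophil and mast cell (1.63 CPM) and microglia markers (259 CPM) were inside the range of the other aKO astrocytes. The part of any of those cells was not tested.

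On the other side, Ccne2 was the only member whose groups did not overlap, with 4.18, 2.43, 3.37, 3.66 and 2.90 CPM in aKO astrocytes, against 4.91, 4.45 and 5.29 CPM in WT astrocytes. Every aKO library was below every WT library, at -0.57 (SE 0.37, edgeR's adjusted p = 0.9997), and 0.496% of all genes tested lay lower in this way, with 0.976% higher. Birc5 had -0.46 (SE 0.61), Ccna2 -0.41 (SE 0.69) and Tyms -0.16 (SE 0.34), and all 3 turned sign without WT astrocytes 265, to 0.76, 0.0621 and 0.000448. Of the 5 neural progenitor markers, Fabp7 was at 789 to 2891 CPM in aKO astrocytes and 177 to 513 CPM in WT astrocytes, without overlap. The other 4 summed to 49.4 to 84.5 CPM in aKO astrocytes and 64.8 to 71.9 CPM in WT astrocytes, which overlap. The part of such cells in the levels of the division genes was not tested. In the lists of other division genes 0 of 38, 0 of 45 and 0 of 15 were called in this comparison.

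**Figure D5:**
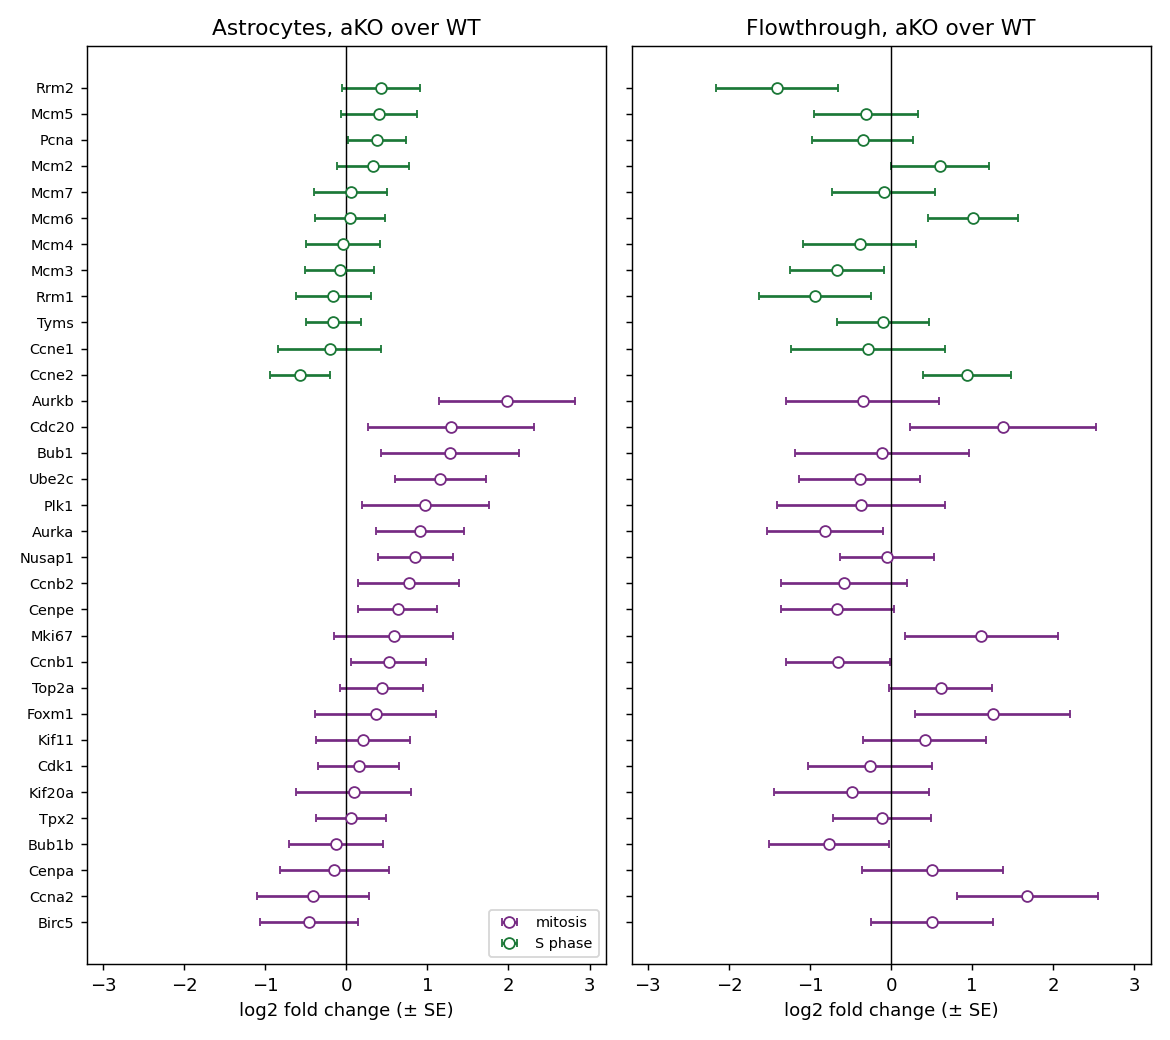
Log2 fold change of each member between aKO and WT, in astrocytes and in flowthrough, with 1 standard error. No member passed the adjusted threshold in either fraction, and 23 of 33 lie above 0 in astrocytes and 11 of 33 in flowthrough.

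In flowthrough, with 2 libraries a group, no member was called between aKO and WT by edgeR, DESeq2 or limma voom, and 0 had an unadjusted p under 0.05, beside 3.96% of the 20637 genes tested and 0 called among them. The members lay mostly below 0 (22 of 33), with a median of -0.26, beside 0.07 for all genes. Ccna2 was at 2.71 and 4.38 CPM in aKO flowthrough, against 1.05 and 1.15 CPM in WT flowthrough (1.68, SE 0.87, adjusted p = 0.8045). Mcm6 was at 10.3 and 9.16 CPM in aKO flowthrough, against 4.98 and 4.69 CPM in WT flowthrough (1.01, SE 0.55, adjusted p = 0.8045). These pairs did not overlap, nor did Top2a and Cdc20, higher in aKO, and Aurka and Bub1b, lower in aKO, but of all genes tested 20.0% lay higher and 13.6% lower without overlap.

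Ccne2 in flowthrough was at 4.75 and 9.40 CPM in aKO and 4.93 and 2.42 CPM in WT (0.94, SE 0.54), and Foxm1 had 1.25 (SE 0.96) with all libraries and -0.12 without aKO 205. Rrm2 was at 8.71 and 5.66 CPM in aKO flowthrough, against 7.09 and 31.2 CPM in WT flowthrough. Its log2 fold change of -1.41 (SE 0.75) came to 0.0198 without WT 202, the library that held most Rrm2, Rrm1 and Mcm3. Rrm1 had -0.94 (SE 0.69), Mcm3 -0.67 (SE 0.58) and Aurka -0.82 (SE 0.71). Without WT flowthrough 202 the median over the members was 0.51, on the other side of 0.

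The effect of genotype in astrocytes minus that in flowthrough was called for 0 of the 33 members by edgeR, DESeq2 or limma voom, and for 0 of all genes, and 1 member had an unadjusted p under 0.05, beside 2.42% of all genes. That member was Ccne2, at -1.50 (SE 0.67, edgeR's adjusted p = 0.9556), which was below 0 in astrocytes and above 0 in flowthrough. Ccna2 had -2.07 (SE 1.06), Mcm6 -0.95 (SE 0.68) and Birc5 -0.90 (SE 0.94), the last of which was 0.28 without WT astrocytes 265. Above 0 were Aurkb with 2.34 (SE 1.22), Rrm2 with 1.83 (SE 0.93), Aurka with 1.70 (SE 0.89) and Ube2c with 1.56 (SE 0.94). The median over the members was 0.42, and -0.0819 without WT flowthrough 202. This difference shares its libraries with the comparisons above and is no separate evidence of them.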

How the data were processed

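RNA from 12 libraries (8 astrocyte, 4 flowthrough) was made into SMARTer libraries, per the labels' protocols. The tools named are featureCounts 1.4.6-p5 of Subread, STAR 2.5.1a and bcl2fastq, with the build GRCm38, per the submitters' processing notes. The authors deposited whole counts per gene, CPM (counts scaled to the library total) and RPKM (per kilobase as well) for each library, per the file headers. Each file held 41388 genes, and GENCODE M21 gave a symbol for 40254. The total of a library was 21816637 to 62655238 counts, which sets the counting precision, and strandedness is not given in the sources used here.

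Groups came from the titles, whose numbers were read as animals. Counts were tested with edgeR 4.0.16 (R 4.3.3; TMM scaling, genes with enough libraries at a minimum count of 10 and a total of 15, robust quasi-likelihood fit, Benjamini-Hochberg adjustment over all genes, threshold 0.05). Genotype in astrocytes was fitted in 8 libraries, and the other 3 comparisons in 12 libraries and 4 groups, with both genotypes weighted equally between fractions. CPM in the text use TMM-scaled totals of all 12 libraries, and RPKM are as deposited. SE is the log2 fold change over the root of its F value. The members and lists were chosen with earlier results of these data known, so no test was made over a list. Every member was described, with estimates for each between fractions and for up to 4 with the smallest p in each direction elsewhere. The fits were tested on simulated data first. Alternatives were DESeq2 1.42.0, its size factors in edgeR, limma 3.58.1 voom, no filter, thinning to the smallest total, each library left out, pairs of libraries left out, library 202 as aKO, and the animal as a block. The numbers pair fractions of 1 animal. Deviations of same-numbered libraries from their group means correlated at 0.0823 (201), 0.424 (202), 0.166 (203) and 0.404 (205) over genes.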

Additional observations from a re-analysis of the deposited data

Results flagged for a closer look

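In aKO astrocytes (n = 5), 2 of the 33 genes had a library far from the other 4, where the gap to its nearest neighbour over the whole range passed the critical value of 0.71. Chance sets off this rule in about 1 in 20 groups, and 33 genes and 2 sums were examined. Birc5 was highest in aKO 208, at 2.51 log2 CPM beside 0.71 to 1.13 in the others (gap over range 0.765). Mcm7 was lowest in aKO 222, at 2.15 log2 CPM beside 3.99 to 4.11 in the others (gap over range 0.939).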

How the results depend on the processing

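Of the 33 members, 0 were called in either genotype comparison or in their difference in any setting. Between fractions 0 were called higher in any of 22 settings. The number called lower was 8 with the replicate block (13.6% of all genes tested were then called lower). It was 5 in the same 8 libraries of 4 animals without the block (9.97%), and 3 to 9 when 1 library was left out (4.91% to 10.1%). The upper ends of these ranges came from different fits. Without aKO astrocytes 205, 9 members stood beside 8.15%. Without aKO astrocytes 222, 8 members stood beside 10.1%. The number called lower was 10 with DESeq2 (11%) and 10 with no filter (6.48%). It was 6 without astrocyte libraries 222 and 265 (12.4%), 6 without 221 and 222 (8.45%), and 6 with library 202 as aKO (7.45%).

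When 1 library was left out, the median log2 fold change of the members was 0.12 to 0.39 for aKO against WT astrocytes, -0.49 to 0.51 for aKO against WT flowthrough, -1.05 to -0.57 between fractions and -0.0819 to 0.83 for the difference of genotype effects. The number called lower between fractions in the lists of other genes was then 2 to 6 of 38 replication genes, 3 to 9 of 45 mitosis genes and 1 to 5 of 15 G1 regulators. It was 3 of the replication genes in the 8 libraries of 4 animals without the block (9.97% of all genes). It was 5 of the G1 regulators with the replicate block (13.6%), DESeq2 (11%), DESeq2's size factors (8.93%) or voom (9.81%). Without astrocyte libraries 222 and 265 it was also 5 (12.4%).

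Single genes turned sign as follows. In aKO against WT astrocytes, Birc5 had 0.25 with voom, 0.88 without libraries 222 and 265 and -0.96 to 0.76 with 1 library left out. Ccna2 had 0.31 without 222 and 265, 0.0830 without 221 and 222, and -0.70 to 0.0621 with 1 left out, and Tyms had -0.34 to 0.000448. In flowthrough, Foxm1 had -0.12 to 1.89 and Rrm2 -2.18 to 0.0198. Between fractions, Pcna had -1.03 to 0.0690, Rrm2 -0.65 to 0.41 and Cenpe -0.45 to 0.36 with 1 library left out. Cenpe had 0.0409 with the replicate block, 0.0450 in those 8 libraries without it and 0.0170 without 222 and 265. Mcm7 had 0.23, 0.20 and 0.19 in these settings, and -0.32 to 0.13 with 1 left out. For the difference of genotype effects, Birc5 had 0.41 without 222 and 265 and -1.34 to 0.28 with 1 left out. The causes were not tested. Members near 1 CPM rest on few counts, which limits what these libraries can show.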
